A study of Homo sapiens and Mus musculus with 22 samples.

Results

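Metallothioneins and the zinc exporter SLC30A1 were followed across the RNA samples of the series. The 10 members were found by gene symbol, ignoring case: the human genes MT1A, MT1E, MT1F, MT1G, MT1M, MT1X, MT2A and SLC30A1, and the mouse genes Mt1 and Mt2, with Slc30a1 as the mouse entry of SLC30A1. They gave 8 entries among 22655 genes in the table of SETDB1 knockouts, 8 among 21963 in the U2OS table with BIX-01294, and 3 among 22728 in the L929 table. In the U2OS table with BIX-01294, MT1E shared 1 joined entry with its neighbour MT1JP, written MT1E/MT1JP here. The set is counted as chosen by its FPKM in the BIX-01294 and mock samples, with earlier results of these data known, so the differences between BIX-01294 and mock are given as a description and were not tested.

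Metallothioneins are small, cysteine-rich proteins that bind zinc, copper and cadmium and buffer the free zinc of the cell. Their genes are switched on by the zinc-sensing transcription factor MTF1, which binds metal response elements in their promoters, and they also respond to glucocorticoids and oxidants. SLC30A1 (ZnT1) moves zinc out across the plasma membrane and is a known MTF1 target as well, so buffering and export usually rise together when free zinc rises.

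U2OS cells come from a human osteosarcoma, and L929 cells are mouse fibroblasts. The series has 22 samples, of which 14 are RNA samples and 8 are chromatin samples that were not analysed here. The first RNA set held mock U2OS cells, either wild type (WT) or with a knockout of SETDB1, an H3K9 methyltransferase, as KO1 or KO2, each group having 2 libraries. In the second were U2OS cells labelled Vector or ATG5 KD (a knockdown of an autophagy gene), mock or given BIX-01294 (BIX, which inhibits EHMT1 and EHMT2, enzymes that methylate H3K9) at 10 µM for 12 h, with 1 value per group that per the labels stands for 2 replicates. The last set held L929 cells labelled cGAS WT or cGAS KO (cGAS senses cytosolic DNA), mock or given BIX in the same way, with 1 library per group. A treatment note common to the samples says that every cell was given BIX, while the sample labels call part of them mock; the labels were followed, and what the mock cells received, how the knockouts and the knockdown were made, and whether a line is 1 clone were not given in the sources used here. Values are FPKM, fragments mapped to a gene scaled by its length and by the size of the library. Metallothionein mRNAs are short, and the effective length behind their FPKM was not given in the sources used here. Levels are therefore best compared for the same gene between samples.

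Facts of the whole data set that touch the members were few. Of the target genes, SETDB1 was partly lower in both knockouts. Its RNA was 6.46 ± 0.797 FPKM in KO1 and 7.12 ± 0.321 in KO2, against 9.65 ± 0.464 in WT (SD, n = 2 each). ATG5 RNA stood at 11.3 FPKM in Vector mock, 10.1 in ATG5 KD mock, 12.3 in Vector BIX and 13.4 in ATG5 KD BIX, so the RNA does not show the knockdown with BIX and "ATG5 KD" names a label throughout. Mb21d1, the mouse gene for cGAS, went from 2.82 (mock) to 3.47 (BIX) in the cGAS WT cells and from 1.19 to 4.41 in the cGAS KO cells, and "cGAS KO" is likewise the label. The cells expressed mesenchymal markers, with a summed FPKM of 1581 or more in every U2OS library and 4754 or more in every L929 library, against at most 20.6 for epithelial and 3.65 for endothelial markers. Read counts were not given in the sources used here. Depth behind each value is therefore unknown, and no counting interval could be set. In bulk RNA, fewer expressing cells and less RNA per cell cannot be told apart.

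Promoter sequences of the members are shown for the element that MTF1 binds. RefSeq (GRCh38.p14) promoter windows were found for 3 members, and the 250 bases before each start are shown 5′ to 3′ on the gene's strand. Capitals mark each match to the core of the metal response element, searched as TGCACNC and TGCGCNC on both strands. No matches overlapped in the windows shown. MT2A is on the plus strand at chr16:56608334-56608583, MT1X on the plus strand at chr16:56682220-56682469, and SLC30A1 on the minus strand at chr1:211579162-211579411.
MT2A: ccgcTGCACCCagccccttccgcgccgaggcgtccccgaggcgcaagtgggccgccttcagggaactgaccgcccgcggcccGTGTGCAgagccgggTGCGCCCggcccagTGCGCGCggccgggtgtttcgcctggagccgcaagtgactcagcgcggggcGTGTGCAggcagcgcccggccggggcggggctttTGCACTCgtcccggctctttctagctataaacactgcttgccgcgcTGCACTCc
MT1X: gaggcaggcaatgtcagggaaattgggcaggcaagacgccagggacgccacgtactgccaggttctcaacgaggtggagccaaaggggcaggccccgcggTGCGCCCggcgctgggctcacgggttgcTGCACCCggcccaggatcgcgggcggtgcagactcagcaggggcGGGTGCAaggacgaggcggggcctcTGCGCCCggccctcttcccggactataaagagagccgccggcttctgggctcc
SLC30A1: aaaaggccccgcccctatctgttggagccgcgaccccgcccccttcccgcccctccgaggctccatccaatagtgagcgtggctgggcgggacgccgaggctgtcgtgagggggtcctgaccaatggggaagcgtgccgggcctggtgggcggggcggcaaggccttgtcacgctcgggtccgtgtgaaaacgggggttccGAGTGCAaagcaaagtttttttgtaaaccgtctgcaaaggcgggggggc

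The MT2A window held 7 matches and the MT1X window 4, while SLC30A1 held 1. Of all 35116 RefSeq promoter windows of the same length, 24.8% held at least 1 match, 0.37% held 4 or more and 0.0313% held 7 or more. Other genes of the cluster were similar, with 8 matches before MT1H, 3 before MT1B and 3 before MT4. A match on the plus strand lay at nearly the same place in 4 genes, its outer base 54 bases before the start in MT2A and 53 in MT1X, MT1B and MT1H. MT4 had none there, its nearest match having its outer base at 90. The 1 match of SLC30A1 had its outer base at 49, on the other strand. MTF1 itself had 0 matches. A match is a description of these letters and not a bound site.

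MT2A, a widely expressed human metallothionein, was the most abundant member in every U2OS library. It stood at 764 FPKM in Vector mock and 9480.3 in Vector BIX, and at 945 in ATG5 KD mock and 11774 in ATG5 KD BIX. The BIX values were 12.4 and 12.5 times their mock values. Ordered by FPKM, MT2A moved from place 65 to place 1 of 21963 genes in Vector cells and from place 61 to place 1 in ATG5 KD cells. Its difference of 3.63 (Vector) and 3.64 (ATG5 KD) in log2(FPKM + 1) was the 10th and the 28th highest of the 12566 and 12602 genes with FPKM of at least 1 in either value.

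MT1E and MT1X, inducible genes of the same family, started lower and differed more. The MT1E/MT1JP entry stood at 97.3 and 2290.4 FPKM in Vector mock and BIX, and at 197.8 and 3216 in ATG5 KD mock and BIX. These pairs were 23.5 and 16.3 times apart, which took MT1E/MT1JP to place 9 and place 8 by FPKM. MT1X stood at 44.6 and 1035 in Vector mock and BIX, and at 40.8 and 1106 in ATG5 KD mock and BIX. MT1X was 23.2 and 27.1 times apart. In Vector cells the log2 differences of MT1E/MT1JP (4.54) and MT1X (4.51) were in place 2 and place 3 among all genes. In ATG5 KD cells MT1X (4.73) was in place 5 and MT1E/MT1JP (4.02) in place 16.

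SLC30A1, the exporter, was 5.77 times higher with BIX in Vector cells and 8.17 times higher in ATG5 KD cells. Its FPKM was 7.20 in Vector mock, 41.6 in Vector BIX, 9.20 in ATG5 KD mock and 75.2 in ATG5 KD BIX. The log2 differences of SLC30A1, 2.38 and 2.90, were in place 57 and place 49 of all genes.

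**Figure D1:**
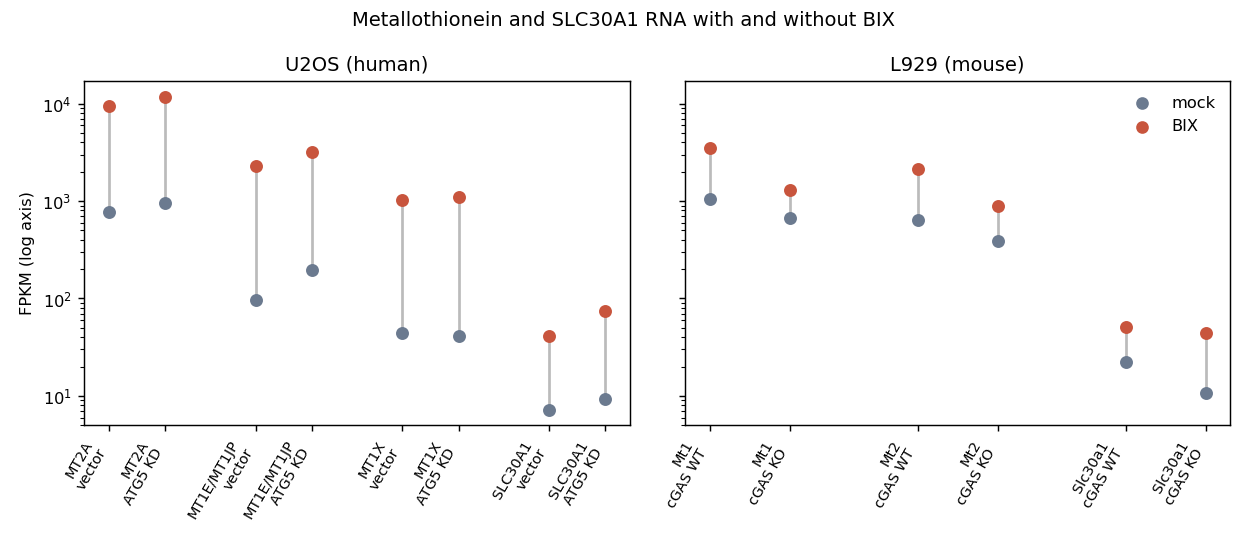
FPKM (log axis) of the members that were above 0 without BIX, mock in grey and BIX in red, in U2OS (left) and L929 (right). Each point is 1 value, and each line joins mock and BIX of the same cells; every BIX point lies above its mock point, from 1.96 times (Mt1, cGAS KO) to 27.1 times (MT1X, ATG5 KD).

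Of the remaining members, MT1G was listed at 0 in both mock values and at 5.17 FPKM in Vector BIX and 10.5 in ATG5 KD BIX. MT1F was listed at 0 in both mock values, at 0.0904 in Vector BIX and at 0.522 in ATG5 KD BIX. MT1M was above 0 in ATG5 KD BIX alone, at 0.0878, and MT1A was listed at 0 in all 4 values. The same low pattern was seen in MT1B (0 without BIX, 0.901 in Vector BIX and 1.89 in ATG5 KD BIX) and MT1H (0 without BIX, 0.416 and 0.825), which are not members. MT3, MT4, MT1L, MT1DP and MT1IP stayed at 0 in all 4 values. Thus 5 of the 8 member entries passed the filter on low values in each of the 2 U2OS backgrounds, MT1G only through its BIX value, and all 5 were at least 2-fold higher with BIX, beside 6.34% of all genes in Vector cells and 8.02% in ATG5 KD cells. As these contrasts count as those that chose the members, nothing is read from that.

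The metallothionein genes lie side by side on chromosome 16, and the abundant ones were spread over the cluster. In the order MT4, MT3, MT2A, MT1L, MT1E, MT1M, MT1JP, MT1A, MT1DP, MT1CP, MT1B, MT1F, MT1G, MT1H, MT1IP, MT1X, the 3 abundant entries are MT2A near one end, MT1E further in and MT1X at the other end. Between MT1E and MT1X, no gene with an entry of its own was above 10.5 FPKM with BIX. How the joined entry splits between MT1E and MT1JP is unknown, and MT1CP was not analysed here. The paralogs are near-identical in sequence, and how reads that fit several of them were shared out was not given in the sources used here. Low values of MT1B, MT1F, MT1G, MT1H and MT1M beside the abundant MT2A, MT1E/MT1JP and MT1X are uncertain. The joined MT1E/MT1JP entry also spans the place of MT1M.

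**Figure D2:**
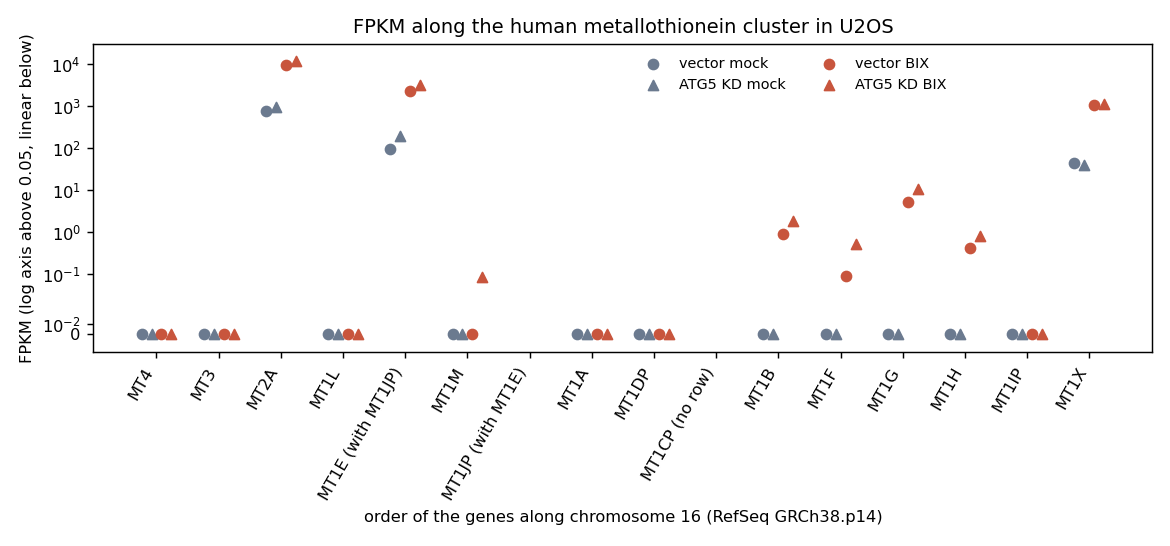
FPKM of the metallothionein genes in the 4 U2OS values (Vector as circles, ATG5 KD as triangles, mock in grey, BIX in red), in their order along chromosome 16; the axis is logarithmic above 0.05 and linear below. MT2A, MT1E (joined with MT1JP) and MT1X stand far above the rest in every value, and MT1B, MT1F, MT1G and MT1H are above 0 with BIX and at 0 in mock.

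The sum over all metallothionein entries, which is less affected by reads moved between paralogs, was 906 FPKM in Vector mock and 12812 in Vector BIX, and 1184 in ATG5 KD mock and 16109 in ATG5 KD BIX. As a share of the FPKM of all genes this was 0.214% and 2.75% in Vector cells, and 0.259% and 2.99% in ATG5 KD cells. The makeup of the sum differed with BIX. MT2A was 17.2 times MT1X in Vector mock but 9.16 times in Vector BIX, and 23.1 times in ATG5 KD mock but 10.6 times in ATG5 KD BIX. MT2A was 7.86 times MT1E/MT1JP in Vector mock and 4.14 times in Vector BIX, with 4.78 and 3.66 times in ATG5 KD cells.

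In L929 the members were also higher with BIX, by less. Mt1, the more abundant of the mouse pair, stood at 1045 FPKM in cGAS WT mock, 3506 in cGAS WT BIX, 669 in cGAS KO mock and 1314 in cGAS KO BIX. Mt2 stood at 645 in cGAS WT mock, 2115.5 in cGAS WT BIX, 392 in cGAS KO mock and 897 in cGAS KO BIX. The BIX values were 3.35 times (Mt1) and 3.28 times (Mt2) the mock values in cGAS WT cells, and 1.96 and 2.29 times in cGAS KO cells. Mt1 and Mt2 kept nearly the same ratio to each other, 1.62, 1.66, 1.70 and 1.46 in cGAS WT mock, cGAS WT BIX, cGAS KO mock and cGAS KO BIX.

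Slc30a1 stood at 22.6 FPKM in cGAS WT mock, 50.5 in cGAS WT BIX, 10.8 in cGAS KO mock and 43.8 in cGAS KO BIX. It was 2.24 times higher with BIX in cGAS WT cells and 4.04 times higher in cGAS KO cells, the opposite order from Mt1 and Mt2. Mt3, the brain metallothionein, was listed at 0 without BIX and at 0.327 and 0.237 with BIX, and Mt4 was listed at 0. All 3 member entries were at least 2-fold higher in cGAS WT cells, beside 7.4% of all genes. In cGAS KO cells Mt2 and Slc30a1 were, beside 13.0%, with Mt1 just under (0.97 in log2). As these contrasts too count as those that chose the members, nothing is read from these counts. Among all genes the log2 differences ranked far lower than in U2OS: place 209 for Mt1 (1.75), 223 for Mt2 (1.71) and 648 for Slc30a1 (1.13) of 11077 in cGAS WT, and 1549 for Mt1, 1079 for Mt2 (1.19) and 331 for Slc30a1 (1.92) of 11376 in cGAS KO. The metallothionein sum was 0.322% of all FPKM in cGAS WT mock and 1.01% in cGAS WT BIX, against 0.220% and 0.425% in cGAS KO cells. The step between low FPKM values puts the reads of the cGAS WT BIX library at 0.738 of those of cGAS KO BIX; its part in the result was not tested.

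**Figure D3:**
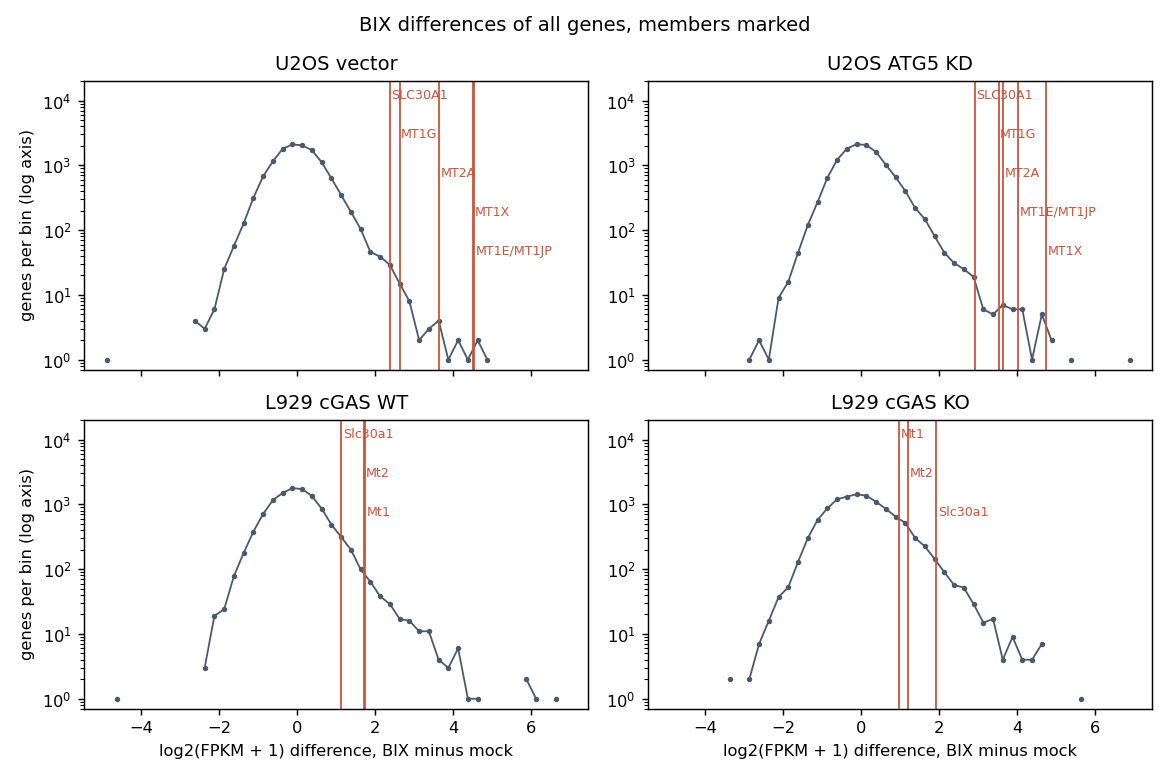
Number of genes (log axis) per bin of the log2(FPKM + 1) difference between BIX and mock in the 4 backgrounds, with members that passed the filter as red lines. In U2OS the lines stand at 2.38 or more, near the upper end, while in L929 they stand between 0.97 and 1.92 inside the upper flank; the place of MT1G depends on the added 1, since it was listed at 0 in mock.

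Between the ATG5 KD and Vector labels, members with values above 0 in both differed by 2.03 times or less at FPKM 1 or more. Without BIX, ATG5 KD was 2.03 times Vector for MT1E/MT1JP (197.8 against 97.3 FPKM), and the log2 differences were 0.31 for MT2A, 0.32 for SLC30A1 and -0.12 for MT1X. MT1E/MT1JP was 1 of 4 member entries that passed the filter, beside 0.505% of all genes at least 2-fold higher. With BIX, 0 of 5 member entries were at least 2-fold higher in ATG5 KD on this scale, beside 1.4% of all genes. The nearest were MT1G (10.5 against 5.17) and SLC30A1 (75.2 against 41.6, 0.84 in log2), followed by MT1E/MT1JP (0.49), MT2A (0.31) and MT1X (0.10). The BIX difference was thus 0.52 higher in ATG5 KD for SLC30A1, 0.22 higher for MT1X, 0.01 higher for MT2A and 0.53 lower for MT1E/MT1JP. For MT1G, listed at 0 in both mock values, it was 0.89 higher and depends on the added 1. Over 12879 genes the median of this difference of differences was 0.01, and 0.823% of genes reached 1. There is 1 value per group, so none of these was tested.

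All 3 members were lower in the L929 cells labelled cGAS KO. Without BIX, the log2 difference from cGAS WT was -0.64 for Mt1, -0.72 for Mt2 and -0.99 for Slc30a1, and 0 of 3 were at least 2-fold lower, beside 3.13% of all genes. With BIX it was -1.42 for Mt1, -1.24 for Mt2 and -0.20 for Slc30a1, and 2 of 3 were at least 2-fold lower, beside 5.26%. The BIX difference was 0.77 lower in cGAS KO for Mt1 and 0.52 lower for Mt2, but 0.79 higher for Slc30a1, with 3.26% of 11709 genes reaching 1 and a median of 0.04. The cells also differed in markers. Of 6 mesenchymal markers 3 were at least 2-fold higher in cGAS KO mock (4.7% of all genes were), with a list median of 1.28 in log2, led by Fn1 (18.6 FPKM in cGAS WT and 348 in cGAS KO), Col1a2 (49.4 and 486) and Col1a1 (40.9 and 192). Of the haematopoietic markers, Cd68, found in macrophages, was lower in cGAS KO than in cGAS WT, at 5.11 against 41.2 FPKM without BIX and at 29.6 against 80.3 with it. Lyz2, the other one measured, was higher in cGAS KO, at 2.57 against 1.205 without BIX and at 1.97 against 0.940 with it. The summed haematopoietic markers ran from 7.68 to 81.5 FPKM over the 4 libraries, with 2 of 6 at FPKM 1 or more. The part of these differences in the metallothionein values was not tested.

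Other zinc exporters were a mixed group. Of the SLC30 genes besides SLC30A1, most of which fill vesicles and organelles with zinc, 7 were measured well enough in U2OS. With BIX, 3 were at least 2-fold higher in Vector cells (6.34% of all genes were) and 1 was lower (4.28%). The median was 0.44 in log2 beside 0.002 for all genes. In ATG5 KD cells 3 were higher (8.02% of all genes were) and 0 lower (3.68%), with a median of 0.06 beside 0.01. SLC30A3, a vesicular transporter, stood at 7.44 and 17.0 FPKM in Vector mock and BIX, and at 5.98 and 15.3 in ATG5 KD. SLC30A7, which loads the Golgi, stood at 3.20 and 7.92 in Vector and at 3.01 and 7.83 in ATG5 KD. SLC30A2, another vesicular transporter, came from 0.0216 to 1.33 in Vector and from 0.0133 to 1.18 in ATG5 KD, so it passed the filter only through BIX. SLC30A9 was the lower gene, with 20.2 and 8.73 in Vector and 19.4 and 9.56 in ATG5 KD. In L929, 0 of 5 such genes were at least 2-fold apart in cGAS WT, beside 13.6% of all genes, with a median of 0.10. In cGAS KO 1 of 5 was 2-fold apart, beside 22.9% of all genes: Slc30a4 (82.1 and 167) was higher, with a median of 0.10 beside -0.04 for all genes.

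Zinc importers of the SLC39 family that could be counted, 8 of 14 listed in U2OS and 10 of 14 in L929, stayed under 2-fold with BIX. In U2OS 0 of 8 were at least 2-fold apart in either background, beside 10.6% (Vector) and 11.7% (ATG5 KD) of all genes. Their medians were -0.04 and -0.02. In L929 0 of 10 were, beside 13.6% (cGAS WT) and 22.9% (cGAS KO) of all genes, with medians of -0.01 and 0.01. SLC39A14, which also carries iron and manganese, had the highest difference of them in Vector cells, from 19.3 to 29.9 FPKM, and went from 19.0 to 27.1 in ATG5 KD. SLC39A9 had the highest in ATG5 KD, from 18.4 to 27.1, and went from 16.7 to 21.0 in Vector. SLC39A1, SLC39A4 and SLC39A7 were not counted in U2OS with BIX, because their entries there were joined with other genes. MTF1, the zinc sensor, stood at 5.31 and 7.36 in Vector mock and BIX and at 4.11 and 6.21 in ATG5 KD. The mouse gene Mtf1 stood at 6.24 (mock) and 10.4 (BIX) in the cGAS WT cells, and it went from 3.80 to 8.93 in cGAS KO, the 1 background in which it was over 2-fold apart. Among 7 measured genes of a list of MTF1 and genes linked to it, 0 were 2-fold higher and 1 was lower in each U2OS background, beside 4.28% (Vector) and 3.68% (ATG5 KD) of all genes lower. The lower gene was SLC40A1, the iron exporter ferroportin, at 8.03 and 2.46 in Vector and at 7.10 and 1.49 in ATG5 KD. In L929 that list had 1 of 7 higher in each background, beside 7.4% (cGAS WT) and 13.0% (cGAS KO) of all genes. These were Ndrg1 in cGAS WT (25.7 and 151) and Mtf1 in cGAS KO. The list medians in log2 were 0.62 (cGAS WT) and 0.36 (cGAS KO), beside -0.04 for all genes in both, with 5 of 7 above 0 in each. In U2OS they were -0.07 (Vector) and 0.08 (ATG5 KD), beside 0.002 and 0.01.

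**Figure D4:**
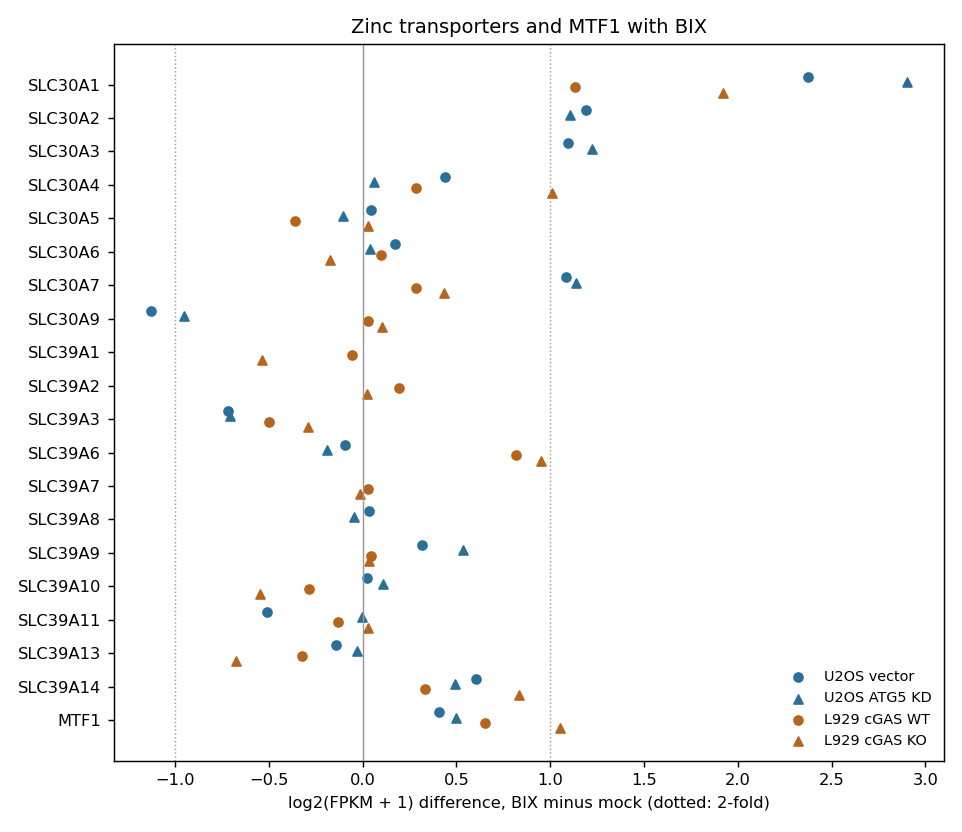
Difference in log2(FPKM + 1) between BIX and mock for the SLC30 exporters, the SLC39 importers and MTF1 in the 4 backgrounds (U2OS in blue, L929 in brown), with dotted lines at 2-fold. Of the transporters shown, SLC30A1 is the 1 beyond 2-fold higher in all 4 backgrounds (1.13 to 2.90). These values count as having chosen it, so nothing is read from that. SLC30A2 and SLC30A3, beyond 2-fold higher in both U2OS backgrounds, have no L929 points. No SLC39 gene shown passes a dotted line, but SLC39A1 and SLC39A7 have no U2OS points and SLC39A4 has none.

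The SETDB1 knockouts allowed a test of the members that did not use BIX. MT2A stood at 551 and 778 FPKM in the 2 WT libraries, 659 and 666 in KO1, and 599 and 769 in KO2. MT1E stood at 199 and 136 in WT, 216 and 128 in KO1, and 161 and 132 in KO2. MT1X stood at 33.4 and 24.6 in WT, 38.1 and 28.3 in KO1, and 32.8 and 30.5 in KO2. The groups overlapped for each of these genes, and for MT1E and MT1X replicate 1 was above replicate 2 in all 3 groups. SLC30A1 stood at 11.80 and 10.07 in WT, 13.24 and 10.69 in KO1, and 9.44 and 10.05 in KO2. KO1 and WT overlapped for SLC30A1, while both KO2 libraries lay below both WT libraries, by as little as 10.05 against 10.07. MT1G was at 0.451 in 1 WT library, at 0.327 in 1 KO2 library and at 0 in the others, and MT1A, MT1F and MT1M were at 0 in all 6.

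By limma on log2(FPKM + 1), 0 of the 4 members that passed the filter were called at an adjusted p below 0.05 in the mean of the knockouts against WT, beside 3.23% of all 12610 genes, and 0 had an unadjusted p below 0.05. The difference was 0.03 for MT2A (95% interval -0.31 to 0.37, adjusted p = 0.97), -0.08 for MT1E (-0.50 to 0.34, adjusted p = 0.941) and 0.16 for MT1X (-0.14 to 0.46, adjusted p = 0.753). It was -0.02 for SLC30A1 (-0.27 to 0.23, adjusted p = 0.977). The same count was 0 of 4 in KO1 (2.43% of all genes), in KO2 (2.44%) and between KO1 and KO2 (0.0%). The KO2 share rests on 308 genes, of which 170 were called when KO2 replicate 2 was left out and 203 when WT replicate 1 was. The labels do not say whether libraries of a group came from separate cultures, so the p-values measure only the spread between these libraries, and both knockouts share the same WT libraries. Metallothionein FPKM summed to 0.160% to 0.203% of all FPKM over the 6 libraries.

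One zinc transporter was called in the SETDB1 knockouts, and it entered the test only because it was high there. SLC39A4 (ZIP4), the importer that takes up dietary zinc in the gut, had FPKM of 0.556 and 0.883 in the WT libraries, 6.17 and 4.57 in those of KO1, and 5.15 and 3.81 in those of KO2. All 4 knockout libraries lay above both WT libraries. SLC39A4 rose by 1.78 in log2(FPKM + 1) in the mean of the knockouts (SE 0.154, 95% interval 1.44 to 2.11, limma adjusted p = 2.33e-05), by 1.89 in KO1 (adjusted p = 7.23e-05) and by 1.67 in KO2 (adjusted p = 0.000179). Both WT values were under the filter on low values, and the added 1 understates the difference. With no such filter the limma adjusted p of SLC39A4 was 0.00898 for both knockouts averaged, 0.0154 for KO1 and 0.0253 for KO2. SLC39A4 was the 1 of 11 measured SLC39 genes that was called, beside 3.23% of all genes. The list median was -0.04 beside -0.01 for all genes. Of 6 SLC30 genes besides SLC30A1 0 were called, with a median of 0.06, and the nearest was SLC30A3 at -0.43 (adjusted p = 0.07). MTF1 differed by 0.06 (adjusted p = 0.925) and was 3.99 ± 0.434 in WT, 4.26 ± 0.0649 in KO1 and 4.13 ± 0.335 in KO2 (SD, n = 2 each).

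**Figure D5:**
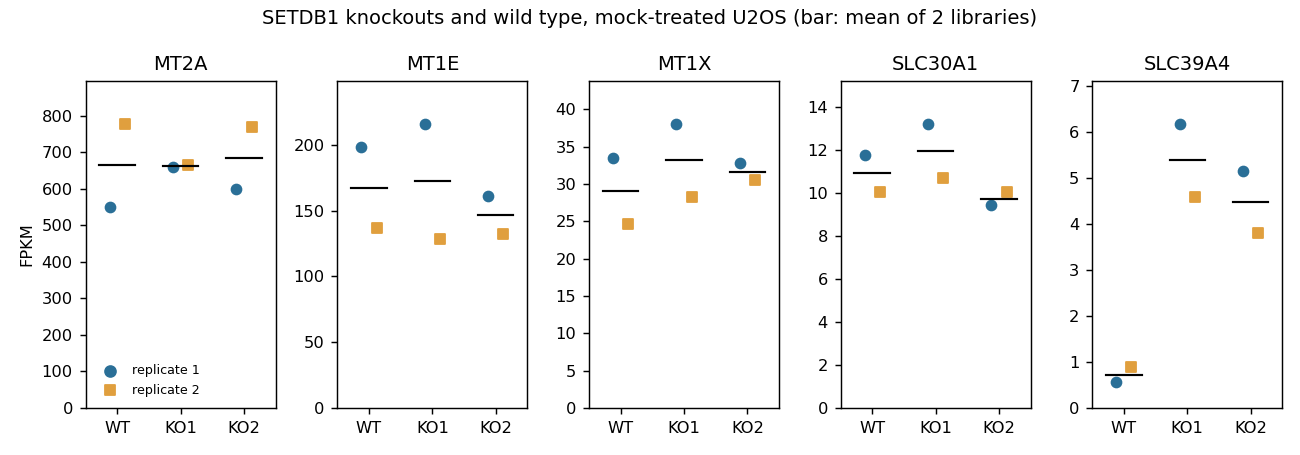
FPKM of MT2A, MT1E, MT1X, SLC30A1 and SLC39A4 in mock U2OS cells that were WT, KO1 or KO2; circles are replicate 1, squares replicate 2, and the bar is the mean of 2 libraries. The groups overlap for the metallothioneins, the KO2 points of SLC30A1 lie just below those of WT, and SLC39A4 is below 1 FPKM in both WT libraries and at 3.81 or more in all 4 knockout libraries.

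Genes with a pattern close to the members were sought over the 8 values of the BIX sets, centred within each line. The 833 genes compared were matched by symbol between human and mouse and reached FPKM 1 in at least 2 of the 8 values. They also had to span at least 2-fold in FPKM + 1 within each line, so all of them varied in both lines. SLC30A1 and MT2A (Mt2 in mouse) had a Pearson r of 0.963 with each other. These same values count as having chosen both genes, so nothing is read from that r. The genes most like SLC30A1 were KBTBD2 (0.995), NAF1 (0.991), YRDC (0.990), RSL24D1 (0.988) and RRS1 (0.987). KBTBD2, the closest, stood at 18.7 FPKM in Vector mock, 41.7 in Vector BIX, 19.2 in ATG5 KD mock and 53.6 in ATG5 KD BIX, and at 14.7, 24.5, 11.5 and 21.5 in cGAS WT mock, cGAS WT BIX, cGAS KO mock and cGAS KO BIX. The genes most like MT2A were SLC16A1 (0.993), UPP1 (0.991), NIFK (0.990), MEF2D (0.987) and USP36 (0.986). UPP1, a uridine phosphorylase, stood at 17.6, 102.7, 20.3 and 127.3 in Vector mock, Vector BIX, ATG5 KD mock and ATG5 KD BIX, and at 11.3, 19.2, 6.62 and 10.4 in the L929 values in the same order. All of these values share their libraries and the split between mock and BIX, so the correlations are a description and carry no p.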

How the data were processed

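RNA was measured in poly(A)-selected paired-end libraries. The authors aligned reads with TopHat2 to hg19 or mm10 and made FPKM with Cufflinks, after FastQC and cutadapt, per the submitters' processing notes; versions, options and the gene annotation were not given in the sources used here. Deposited FPKM were used as they stood, 1 table per set. FPKM were not compared directly across tables. Differences and ranks computed within a table were set beside those of other tables, and correlations over both lines used values centred within each line. Of repeated entries of a symbol the one with the highest mean was kept, and 1894, 1797 and 1121 short RNAs were left out. No read counts were used and depth is unknown.

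The SETDB1 set was tested with limma 3.58.1 (R 4.3.3, variance trend) on log2(FPKM + 1), for genes that reached FPKM 1 in at least 2 of the 6 libraries, with Benjamini-Hochberg adjustment over all genes and a threshold of 0.05; the fit was tested on simulated data. The other 8 comparisons have 1 value per group: genes with FPKM of at least 1 in either value were counted when 2-fold apart, without a test. The members and the 12 gene lists were chosen with earlier results of these data known. FKBP5 in the knockouts was named after its values were seen. Named are all members, other metallothioneins at FPKM 1 or more, up to 4 genes per list that were called or 2-fold apart with FPKM of at least 5, and the 5 genes most like SLC30A1 and MT2A; metallothioneins at lower levels, SLC30A2, SLC30A3 in the knockouts, SLC39A6, SLC39A9, SLC39A10, SLC39A14, MTF1 and the marker genes were named after their values were seen. Alternatives covered a pseudocount of 0.1, no filter or FPKM of at least 5, quantile normalization or centring on the median, summed repeated entries, a replicate block and leaving out each library.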

Additional observations from a re-analysis of the deposited data

Results flagged for a closer look

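Among the list genes named for being 2-fold apart in at least 1 background and SLC30A1, there were 2 in which BIX went opposite ways in both backgrounds of the human line and both of the mouse line; the difference was not tested. HSPH1, a heat shock chaperone, had log2 BIX differences of -0.54 and -0.43 in U2OS and 0.98 and 1.24 in L929, a mean difference of -1.5959 between the lines. SLC30A9, which is known in mitochondrial zinc export, had -1.13 and -0.95 in U2OS and 0.03 and 0.10 in L929, a mean difference of -1.1024, and its L929 values are close to 0. Below 2-fold, SLC39A6 (-0.10 and -0.19 in U2OS, 0.82 and 0.95 in L929) and SLC39A10 (0.02 and 0.11, then -0.29 and -0.55) also had opposite signs, again untested.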

How the results depend on the processing

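Of 239 values of the members and of SLC39A4 recomputed under alternatives, 228 kept their direction and their side of the threshold. SLC39A4, which is not a member, kept both in every alternative, and the values that did not were all of members. Of the 80 member values from BIX against mock, 79 kept both. The exception was Mt1 in cGAS KO (0.97, and 1.01 when centred on the median). With a pseudocount of 0.1, the genes 2-fold apart numbered 2123 in Vector (1335 as reported; 59.7% higher, 49.0% with 0.1), 2350 in ATG5 KD (1475; 68.5% and 55.6%), 266 between ATG5 KD and Vector mock (119), 498 between them with BIX (227) and 2045 between cGAS KO and WT with BIX (1328). It also added 1 member with BIX (MT1G, 1.00 between ATG5 KD and Vector) and 1 in mock L929 (Slc30a1, -1.05 between cGAS KO and WT). With FPKM of at least 5, 562 genes were apart between cGAS KO and WT mock (863), and limma called 201 in the mean of the knockouts (407), 150 in KO1 (306) and 147 in KO2 (308). Without a filter limma called 179 in KO1 and 185 in KO2. Leaving out each library gave 277 to 438 in the mean, 233 to 297 in KO1, 170 to 367 in KO2 and 0 to 5 between KO1 and KO2, where 0 were called and 205 had an unadjusted p below 0.05. The member differences, none of them called, changed sign in this way: -0.35 to 0.19 for MT1E, -0.050 to 0.38 for MT1X, -0.21 to 0.28 for MT2A and -0.12 to 0.088 for SLC30A1. SLC39A4 stayed at 1.64 to 1.91. Where a group keeps 1 library, that library is assumed to vary like the other groups. With the replicate number as a block, limma called 508, 392, 370 and 0 genes in the same 4 contrasts and 0 members. Deviations of same-numbered libraries correlated at 0.00394 to 0.375, and the labels do not pair them. MT2A was 2.78, 3.05 and 3.72 times MT1E in replicate 1 of WT, KO1 and KO2, against 5.70, 5.19 and 5.83 times in replicate 2. In the mean of the knockouts the SE of MT1E was 0.108 with the block, against 0.194 without it. The cause of these shifts was not tested. With 1 value per group outside the SETDB1 set, no error can be put on the BIX differences.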

Other observations

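Copper and iron handling genes were counted in the same way with BIX. Of 9 copper genes in U2OS 0 were at least 2-fold higher in either background and 1 was lower, CCS, the copper chaperone of superoxide dismutase (16.7 and 3.86 FPKM in Vector mock and BIX, 14.3 and 5.41 in ATG5 KD). Of 7 iron genes in U2OS 0 were 2-fold apart. All genes were 2-fold apart in 10.6% (Vector) and 11.7% (ATG5 KD) of cases, so the copper count is near that share. In L929, 0 of 8 copper genes and 0 of 8 iron genes were 2-fold apart in cGAS WT, beside 13.6% of all genes. In cGAS KO 1 of each was higher, near the 13.0% of all genes that were higher there. These were the copper exporter gene Atp7a (4.37 and 9.98) and the transferrin receptor gene Tfrc (36.0 and 77.7).

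Glucocorticoid-responsive genes, a class to which metallothioneins also belong, were mostly higher with BIX in U2OS and mixed in L929. The log2 difference was above 0 in 5 of 6 (Vector), 6 of 6 (ATG5 KD) and 5 of 7 (each L929 background). In U2OS 2 of 6 were at least 2-fold higher in Vector (median 0.90 in log2) and 4 of 6 in ATG5 KD (median 1.28), beside 6.34% and 8.02% of all genes, whose medians were 0.002 and 0.01. They included DUSP1, a MAP kinase phosphatase (22.3 and 107 in Vector, 30.1 and 105 in ATG5 KD), and the clock gene PER1 (8.25 and 29.3, then 6.89 and 34.4). In L929 3 of 7 were higher in cGAS WT and 4 of 7 in cGAS KO, with medians of 0.65 and 1.14, and 1 was lower in each. Of all genes 7.4% and 13.0% were higher, with a median of -0.04 in both. The lower gene was Fkbp5, a chaperone and a common marker of glucocorticoid action. It went from 67.2 to 25.3 in the cGAS WT cells and from 35.7 to 15.3 in the cGAS KO cells. Human FKBP5 shared a joined entry with LOC285847 in the SETDB1 set and was left out of the list there. That entry was called, at 0.61 in the mean of the knockouts (limma adjusted p = 0.00267). WT libraries averaged 7.23 FPKM, against 11.3 for those of KO1 and 11.9 for those of KO2. Of the 6 list genes counted there, 0 were called. Values of FKBP5 with BIX in U2OS are not given here. Of the heat shock genes, 1 of 6 was lower in each U2OS background, beside 4.28% and 3.68% of all genes: HSPA8 (664 and 195, then 794 and 186). In L929, where the shares of all genes are those just given, 2 of 7 were higher in cGAS WT, among them Hspa1b (4.86 and 13.6), and 1 of 6 in cGAS KO, Hsph1 (29.1 and 70.2).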
